A study of Homo sapiens with 4 samples.

Results

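The aldo-keto reductases are soluble enzymes that use NADPH to reduce the carbonyl group of aldehydes, ketones, sugars and steroids to alcohols. The AKR1C enzymes act on steroid hormones and prostaglandins, the AKR1B enzymes on glucose, retinal and reactive lipid aldehydes, and the AKR7A enzymes on aldehydes such as the dialdehyde of aflatoxin and succinic semialdehyde. Several AKR1B and AKR1C genes are known targets of NRF2, the transcription factor of the antioxidant response, which binds antioxidant response elements. In breast cells, AKR1C enzymes are known for changing the local supply of androgens, oestrogens and progesterone.

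The family was taken as every probe whose platform gene symbol is 1 of 9 members. Of these, 7 members had a named probe, out of 20046 named genes, and 14 probes in all. AKR1A1 and AKR1B1 had no probe named by the annotation used and were not analysed here. RNA came from MDA-MB453 cells, a line established from a human breast carcinoma, grown in serum-containing medium. The labels call GFP-positive cells cancer stem-like and GFP-negative cells non-stem-like. Each group had 2 arrays of Illumina beads, and RNA was isolated as pairs of both fractions on different days. The series text adds that batches of RNA were combined for the arrays, so whether an array holds the RNA of 1 day is not clear, and the spread between replicates may not be that of separate preparations. The sources used here do not give what drives GFP, nor whether replicates were grown as separate cultures.

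Between 36.8% and 38.5% of the 47321 probes per array were detected, meaning a detection p under 0.05 against the negative control beads. Of the luminal apocrine markers chosen for the line, 13 had a named probe, and 8 were detected on each GFP-positive array and 11 and 10 on GFP-negative replicates 1 and 2. ERBB2, FOXA1, KRT8, KRT19 and EPCAM were detected on all 4 arrays, whereas GATA3 and PIP were detected on none. These markers also differed between the groups, with 3 of 10 tested higher in GFP-positive cells and 4 lower. Over all tested genes, each by its brightest probe, 20.3% were higher and 22.4% lower. KRT8, a luminal keratin, gave 12411 and 12727 in the GFP-positive samples against 658 and 417, a log2 difference of 5.18 (adjusted p = 2.12e-05, limma). The keratin KRT19 had 3.20. KRT18, also a keratin of the list, was dim, with 224 and 249 in the GFP-positive samples against 225 and 194. It had 0.39 and did not pass (adjusted p = 0.202, limma), and its other probe was not tested. ERBB2, a receptor tyrosine kinase, and the adhesion molecule ALCAM had -1.46 and -1.47, and the claudin CLDN8 was at least 1.75-fold lower. EPCAM and FOXA1 had smaller differences of 0.60 and -0.94 (adjusted p = 0.0411 and 0.0126, limma), which kept their direction with each array left out. In those fits the difference ranged from 0.45 to 0.75 for EPCAM and from -1.21 to -0.69 for FOXA1. Their calls did not hold in every such fit, which leaves 1 array in a group. Another EPCAM probe had 0.74 and passed (adjusted p = 0.0219, limma), and a further one had 0.60 and did not pass. The AKR1C differences described next were measured on the same arrays, and the part of these marker differences in them was not tested. Arrays of the same group correlated at r = 0.987 or above and arrays of different groups between 0.843 and 0.856 across tested probes, which are not independent replicates. In RNA from mixed cells, fewer cells of a type and less RNA per cell cannot be told apart.

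AKR1C3 reduces ketosteroids to active androgens and oestrogens and also makes prostaglandin F. Its probe (ILMN_1713124) gave signals of 150 and 162 on GFP-positive replicates 1 and 2, and of 9271 and 8042 on GFP-negative replicates 1 and 2. Neither GFP-positive signal stood above the negative controls, with detection p-values of 0.536 and 0.532. The groups did not overlap. After background correction and quantile normalisation the log2 signal was 5.34 ± 0.01 (SD, n = 2) in GFP-positive and 12.97 ± 0.17 in GFP-negative cells. Because the GFP-positive level has only a bound, the GFP-positive signal is given as at least 114-fold lower. The members were picked by symbol, but the family was chosen by its signals in this same comparison, so the differences of its probes are descriptions and carry no test.

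AKR1C4, known as a liver enzyme of steroid and bile acid metabolism, had a pair of probes that disagreed. ILMN_1687757 gave signals of 222 and 252 in the GFP-positive samples against 2702 and 3362 in the GFP-negative samples. It was the only AKR1C probe detected on every array, and its groups did not overlap. Its log2 signal was 6.54 ± 0.13 in GFP-positive and 11.40 ± 0.15 in GFP-negative cells (SD, n = 2), a log2 difference of -4.86 ± 0.18 (SE). The other probe, ILMN_1668880, was not detected on any array, with signals from 113 to 135. Most markers of hepatocytes were not detected on the same arrays. Of 15 such markers with a named probe, 0 and 4 were detected on GFP-positive and 2 and 3 on GFP-negative replicates 1 and 2. Their mean log2 signal was 5.50 and 5.69 in the GFP-positive samples against 5.61 and 5.60 in the GFP-negative samples. Of these markers 9, among them APOB, AFP and AHSG, were detected on no array. CYP2E1 and APOA1 were detected on both GFP-negative arrays and were the 2 tested. They had log2 differences of -0.74 and -0.33 and did not pass (adjusted p = 0.0797 and 0.207, limma). ALB, SERPINA1 and TF were detected on GFP-positive replicate 2 only.

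AKR1C2 inactivates the androgen dihydrotestosterone and had 6 probes. ILMN_2412336 gave 183 and 184 in the GFP-positive samples, where neither was above background, against 1591 and 1794 in the GFP-negative samples. On this probe the GFP-positive signal was at least 20.4-fold lower (log2 signal 5.72 ± 0.14 against 10.49 ± 0.03, SD, n = 2). A second probe, ILMN_1719154, lay at the edge of detection. It gave 167 and 209 in the GFP-positive samples against 223 and 209 in the GFP-negative samples, where its detection p was 0.0143 and 0.0494. That difference was at least 1.08-fold, and the signals of GFP-positive replicate 2 and GFP-negative replicate 2 were nearly equal before normalisation. The other 4 AKR1C2 probes were not detected on any array, with signals between 126 and 205.

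AKR1C1, which inactivates progesterone, and AKR1B10, which reduces retinal and lipid aldehydes, were not detected on any array. The AKR1C1 probe gave 99.8, 104, 109 and 103 on GFP-positive replicates 1 and 2 and GFP-negative replicates 1 and 2. AKR1B10 gave 135 and 197 in the GFP-positive samples against 112 and 114 in the GFP-negative samples. Its highest signal, on GFP-positive replicate 2, had a detection p of 0.157.

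The AKR1C copies have similar sequences, and a probe of 1 copy can bind the transcript of another. The probe sequences were not used here, so the share of each copy in these signals was not tested. Within the GFP-negative group the bright probes did not rank the replicates alike. AKR1C3 was brighter on replicate 1 (log2 signal 13.09 against 12.86), while AKR1C4 was brighter on replicate 2 (11.50 against 11.29) and AKR1C2 was nearly level (10.47 and 10.51). These gaps between replicates are small beside the group differences of the same 3 probes, each with an SE of 0.18. They are gaps between single arrays, and nothing about binding between copies is read from them.

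The AKR7A genes, whose products reduce aflatoxin dialdehyde, were bright in both groups. AKR7A2 (ILMN_1677043) gave 5761 and 5507 in the GFP-positive samples against 7015 and 6244 in the GFP-negative samples. After normalisation its groups overlapped, and the log2 difference was -0.04 ± 0.18 (SE). AKR7A3 (ILMN_2145396) gave 1488 and 1395 against 1987 and 1783. Its normalised groups also overlapped, with a log2 difference of -0.22 ± 0.19. The second AKR7A3 probe, ILMN_1718483, was not detected on any array. The sign of the AKR7A2 difference was not stable, since it ranged from -0.21 with 75th percentile scaling to 0.07 without GFP-negative replicate 1.

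**Figure D1:**
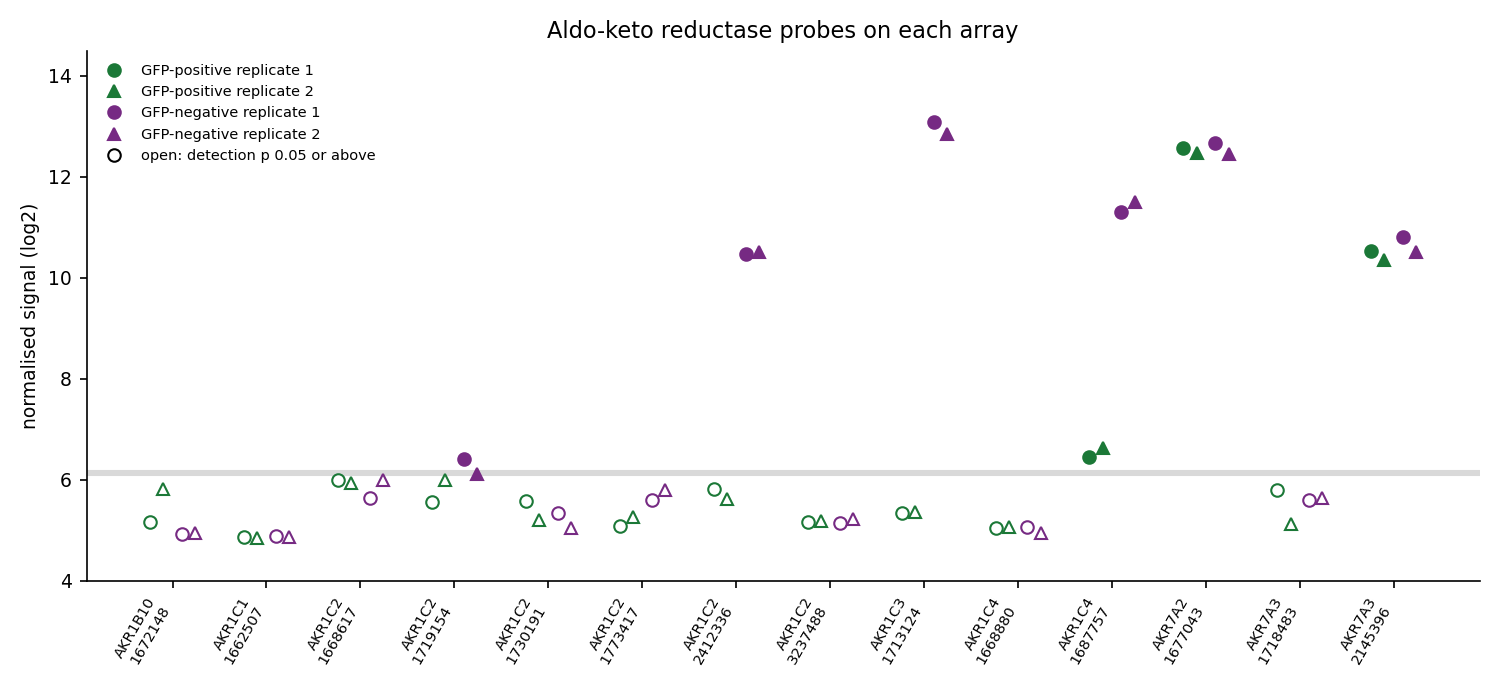
Normalised log2 signal (vertical axis) of the 14 aldo-keto reductase probes (horizontal axis, symbol and probe number), with green points for GFP-positive and purple points for GFP-negative arrays, circles for replicate 1 and triangles for replicate 2. Open points have a detection p of 0.05 or above, and the grey band spans the lowest detected log2 signal of each array, 6.09 to 6.17. AKR1C3, 1 of 6 AKR1C2 probes and 1 of 2 AKR1C4 probes are high on the GFP-negative arrays, and the detected AKR7A2 and AKR7A3 probes are high on all 4.

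In all, 6 of the 14 probes, naming 5 genes, were detected on both arrays of at least 1 group and entered the comparison across 18098 probes. Of these 6, 3 were detected on both GFP-negative arrays and not on both GFP-positive arrays. These 3 passed the filter only through the GFP-negative group. The groups did not overlap for 4 of the 6, where the share over all tested probes was 72.6%. A fold over 2 with groups apart was seen for 3 of the 6, all lower in GFP-positive cells, where 10.6% of all tested probes had such a difference downwards, 11.2% upwards and 21.8% either way. Over the whole table limma called 40.5% of the tested probes, 18.8% higher and 21.7% lower in GFP-positive cells. The median log2 difference was -2.63 over the 6 probes, lying between single probes at -4.77 and -0.48, and -0.05 over all tested probes. Nothing is read from these counts or from this median, because this contrast was known when the family was chosen.

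The AKR1C genes lie side by side on the short arm of chromosome 10, from 4963415 to 5218949 in GRCh38.p14, and the AKR7A genes lie together on chromosome 1. The reference promoters of the AKR1C genes are shown because the probes low in GFP-positive cells were of AKR1C2, AKR1C3 and AKR1C4. AKR1C1, detected on no array, is shown as the neighbour most like AKR1C2, and AKR7A2 as a gene bright in both groups. Each is the RefSeq window of 250 bases before the start, GRCh38.p14, 5′ to 3′ on the gene's strand. The AKR1C2 gene runs on the minus strand from 5018000 to 4987775, so its window, the only one matched, lies before a start inside the gene, as does the downstream start of AKR1C3. Capitals mark CCAAT, the CCAAT box, or TGACNNNGC, an antioxidant response element, on either strand.
AKR1C1, chr10:4963165-4963414, plus strand: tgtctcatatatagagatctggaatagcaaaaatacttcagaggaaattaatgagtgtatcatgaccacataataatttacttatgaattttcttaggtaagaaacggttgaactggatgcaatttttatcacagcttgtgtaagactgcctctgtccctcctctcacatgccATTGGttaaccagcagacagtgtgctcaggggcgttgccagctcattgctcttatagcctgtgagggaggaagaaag
AKR1C2 internal start, chr10:5003858-5004107, minus strand: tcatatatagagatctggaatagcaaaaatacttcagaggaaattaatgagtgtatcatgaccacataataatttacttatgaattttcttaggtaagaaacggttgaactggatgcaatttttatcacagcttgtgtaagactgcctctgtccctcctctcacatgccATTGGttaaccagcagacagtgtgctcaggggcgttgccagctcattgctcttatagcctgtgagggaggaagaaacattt
AKR1C3 upstream start, chr10:5048531-5048780, plus strand: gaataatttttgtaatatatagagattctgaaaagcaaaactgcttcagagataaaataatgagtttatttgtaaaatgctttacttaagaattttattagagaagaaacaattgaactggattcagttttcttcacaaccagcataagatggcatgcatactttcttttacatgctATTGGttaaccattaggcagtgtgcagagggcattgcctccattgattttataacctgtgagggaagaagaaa
AKR1C3 downstream start, chr10:5094164-5094413, plus strand: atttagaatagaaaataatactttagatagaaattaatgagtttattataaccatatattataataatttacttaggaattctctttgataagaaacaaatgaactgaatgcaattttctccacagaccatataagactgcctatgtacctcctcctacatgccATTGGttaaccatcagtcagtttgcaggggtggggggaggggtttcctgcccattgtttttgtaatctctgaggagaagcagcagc
AKR1C4, chr10:5196587-5196836, plus strand: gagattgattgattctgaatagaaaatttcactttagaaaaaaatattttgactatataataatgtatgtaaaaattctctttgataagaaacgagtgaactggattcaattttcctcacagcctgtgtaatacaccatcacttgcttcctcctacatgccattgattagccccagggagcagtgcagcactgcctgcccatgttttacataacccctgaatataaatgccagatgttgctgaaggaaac
AKR7A2, chr1:19312145-19312394, minus strand: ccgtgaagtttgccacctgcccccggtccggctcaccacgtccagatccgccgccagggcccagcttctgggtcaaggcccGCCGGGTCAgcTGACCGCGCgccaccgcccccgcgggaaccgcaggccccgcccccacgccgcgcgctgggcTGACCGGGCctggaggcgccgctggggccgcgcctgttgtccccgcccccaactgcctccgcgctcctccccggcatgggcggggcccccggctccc

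AKR1C1 and AKR1C2 had nearly the same window, with 96.5% identity over 254 aligned columns. The AKR1C3 windows shared 69.2% to 71.4% with those of AKR1C1 and AKR1C2, and the AKR1C4 window 58.4% to 60.2% with the others. AKR1C1, AKR1C2 and both AKR1C3 windows each held 1 CCAAT motif on the opposite strand, starting 73 to 86 bases before the start, and AKR1C4 held none. The motif occurs in 32% of 35116 RefSeq windows of this length. TGACNNNGC was found 3 times in the AKR7A2 window, with no overlap, and in none of the AKR1C windows. It occurs in 10.9% of all windows. Only the 250 bases before each start were searched, so an element further upstream would not be seen. The TATA box letters TATAAA, on either strand, were found in the upstream AKR1C3 window and in the AKR1C4 window, and occur in 10.7% of all windows. The AKR1C windows were also poor in CG dinucleotides, with 2 in AKR1C1, 2 in AKR1C2, 0 in each AKR1C3 window and 1 in AKR1C4, against a median of 11 over all windows. AKR7A2 had 31 and AKR7A3 27. Of all windows, 22.9% had 2 or fewer, 14.7% had 1 or fewer and 6.06% had 0. A match is only a run of letters, and no binding or methylation was measured.

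Of the genes within 2 Mb of the AKR1C cluster, 16 were tested, and 7 were higher in GFP-positive cells. None was lower at an adjusted p of 0.05 (limma moderated test, Benjamini-Hochberg), while 2 were lower at an unadjusted p of 0.05, SFMBT2 and GDI2, named after their values were seen. Distances below 0 are towards lower coordinates. By their brightest probe, 20.3% of all tested genes were higher and 22.4% lower. PFKP, a phosphofructokinase of glycolysis, lay at -1.83 Mb and was at least 107-fold higher. On its tested probe the signals were 7463 and 6756 in the GFP-positive samples against 139 and 141 in the GFP-negative samples (adjusted p = 3.26e-07, limma). A second PFKP probe, ILMN_1851760, was detected only on GFP-negative replicate 1 and was not tested. It gave 171 and 147 in the GFP-positive samples against 223 and 154, a log2 difference of -0.46.

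PRKCQ, a protein kinase C, was at least 3.82-fold higher, and its antisense neighbour PRKCQ-AS1 at least 4.95-fold (adjusted p = 9.00e-05 and 1.75e-05, limma). The second PRKCQ-AS1 probe had a log2 difference of 0.35 and did not pass. MANCR, a noncoding RNA at -0.29 Mb, was at least 1.44-fold higher (adjusted p = 0.00265, limma). The transcription factor KLF6 had a log2 difference of 0.74 ± 0.20 (SE) with an adjusted p of 0.0212. That p rose to 0.112 and 0.0916 when GFP-positive replicate 1 or 2 was left out, to 0.0698 when GFP-negative replicate 2 was, to 0.0603 with 75th percentile scaling and to 0.0576 without a detection filter (limma). The count of higher neighbours was 4 without GFP-positive replicate 1 and also without GFP-positive replicate 2, and 2 among probes detected on all arrays. With the replicate pairing as a block, 2 neighbours were lower, as with 75th percentile scaling, and 1 was lower in 6 other alternatives.

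**Figure D2:**
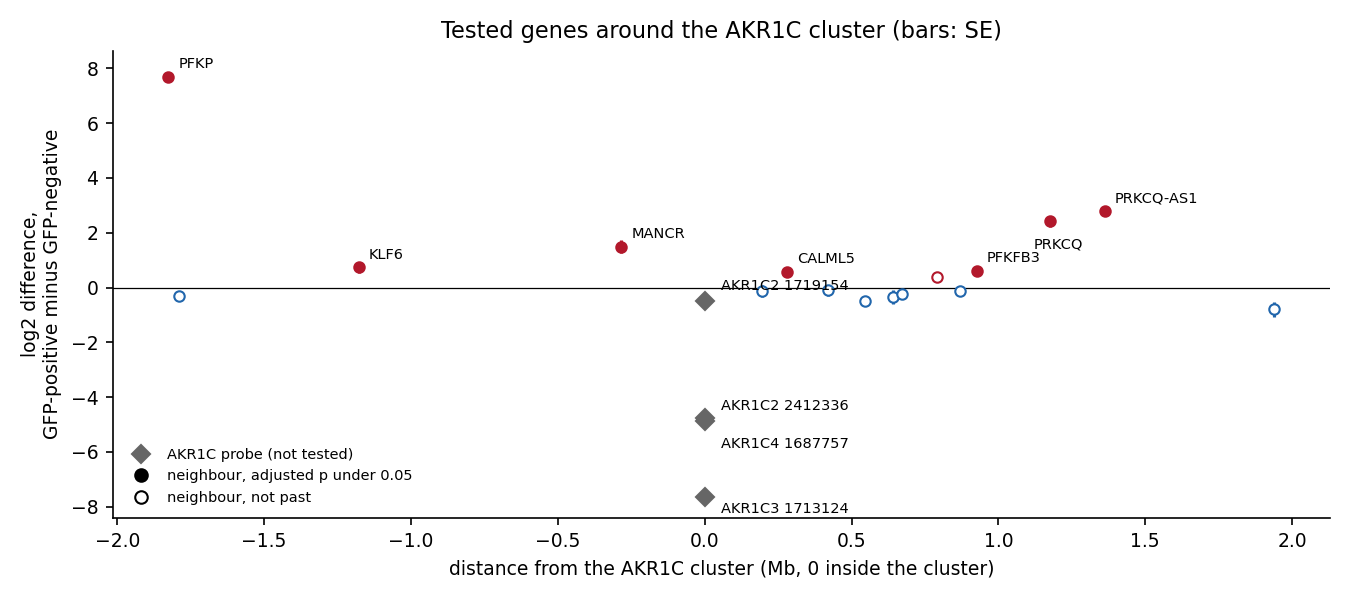
Log2 difference (vertical axis, GFP-positive minus GFP-negative) of tested genes by distance in Mb from the AKR1C cluster (horizontal axis), with grey diamonds for AKR1C probes, circles for neighbours filled where the adjusted p is under 0.05, red above 0 and blue below, and bars for SE. The 7 filled neighbours are all above 0, while the AKR1C3 probe and the bright AKR1C2 and AKR1C4 probes lie at or below -4.77.

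Around the other clusters, calls went both ways. Of 23 tested genes near AKR7A2 and AKR7A3, 5 were higher (21.7%) and 7 lower (30.4%). Over all tested genes these shares were 20.3% and 22.4%. CAMK2N1, an inhibitor of a calmodulin-dependent kinase, and CDA, a cytidine deaminase, had log2 differences of 3.83 ± 0.17 and 2.21 ± 0.20, and IFFO2 had 1.87 ± 0.21. CDA was not detected on GFP-negative replicate 2. PAX7, a muscle stem cell transcription factor, was at least 2.76-fold lower and ACTL8, an actin-like gene, at least 1.6-fold lower. A second PAX7 probe was not detected on any array, with signals from 162 to 198. The higher count was 3 without GFP-positive replicate 1. Of 10 tested genes near the AKR1B genes, 2 were higher and 2 lower, and each of these counts moved by over 1.5 times when an array was left out, to between 1 and 4 for the higher and to 0 or 1 for the lower genes. Only CALD1, an actin-binding protein, passed on its brightest probe under every alternative that tested it. That probe was at least 44.4-fold higher (adjusted p = 8.78e-07, limma). CALD1 probe ILMN_2324002 was at least 11.2-fold higher (adjusted p = 1.15e-05, limma). CALD1 probe ILMN_1717990 was detected on every array, with 291 and 365 in the GFP-positive samples against 232 and 233. Its log2 difference was smaller, at 1.02 ± 0.20 (SE, adjusted p = 0.00668, limma). EXOC4, CHCHD3 and NUP205 had log2 differences of -1.03, 0.74 and -0.62. A second EXOC4 probe had -0.29 (adjusted p = 0.236) and did not pass. On its brightest probe EXOC4 did not pass without GFP-positive replicate 2 (adjusted p = 0.0572, limma). CHCHD3 did not pass without GFP-positive replicate 1 or 2 (0.106 and 0.0574), and NUP205 did not pass without any single array (0.0683, 0.258, 0.0785 and 0.0951, in the order GFP-positive then GFP-negative).

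Other members of the superfamily gave little signal, with AKR1D1 as the exception. AKR1D1 is the steroid 5-beta-reductase, known from liver. Its probe ILMN_2157277 was bright on every array, with 11244 and 12021 in the GFP-positive samples against 17035 and 17065 in the GFP-negative samples. The log2 difference was -0.39 ± 0.17 (SE, adjusted p = 0.106, limma), and the adjusted p was 0.0316 without background correction. The second AKR1D1 probe, ILMN_1692661, was not detected on any array, with signals from 153 to 192. AKR1B15, a close relative of AKR1B10, and KCNAB3, a potassium channel subunit of the same fold, were not detected on any array. Without GFP-positive replicate 1, 1 gene of this list was called higher. AKR1E2 was detected on GFP-positive replicate 2 only, and KCNAB1 and KCNAB2, the other channel subunits, were detected on both arrays of neither group.

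NRF2 and its target genes, counted without the aldo-keto reductases, mostly rose where they passed the test. Of 28 tested genes, 12 were higher in GFP-positive cells and 1 was lower, which is 42.9% and 3.57% where 20.3% and 22.4% of all tested genes were. The median log2 difference was 0.43, against -0.05 over all tested genes. ME1, a malic enzyme that supplies NADPH, was at least 24.9-fold higher, with signals of 1484 and 2099 against 185 and 168. FTL, the ferritin light chain, had a log2 difference of 2.40 ± 0.20 and AIFM2, which protects lipids from oxidation, was at least 3.18-fold higher. GSR, the glutathione reductase, and ABCC2, an export pump for conjugates, had 1.71 ± 0.18 and 1.54 ± 0.19. A second GSR probe had -0.09 and did not pass. NFE2L2, which encodes NRF2, had -0.34 (adjusted p = 0.311), and its inhibitor KEAP1 had 0.09 (adjusted p = 0.70, limma). The lower gene was SLC48A1, a haem transporter (-1.19). Without GFP-positive replicate 2 the count of higher genes was 6.

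Steroid enzymes outside the family were split. Of 15 tested, 2 were higher (13.3%) and 5 lower (33.3%), where 20.3% and 22.4% of all tested genes were. CYP11A1, which cleaves the side chain of cholesterol, gave 225 and 231 in the GFP-positive samples against 984 and 907 in the GFP-negative samples, a log2 difference of -3.16 ± 0.19 (adjusted p = 1.59e-05, limma). HSD17B14 and HSD11B2, steroid dehydrogenases, had -3.17 ± 0.31 and -1.73 ± 0.18. HSD17B14 was not detected on GFP-positive replicate 1 (detection p of 0.442), so the size of its difference rests partly on the background level. HSD17B11, another dehydrogenase of the group, had 4.35 ± 0.29 on its brightest probe and was at least 3.5-fold higher on a second. Both probes passed, while the third had -0.32 and did not pass. The brightest HSD17B11 probe was not detected on GFP-negative replicate 1 (detection p of 0.0714). HSD17B8 had -0.57, with an adjusted p of 0.0421 that rose to 0.0887 or 0.275 when GFP-positive replicate 1 or 2 was left out, and to 0.131 or 0.0626 when GFP-negative replicate 1 or 2 was (limma). The count of lower genes was 3 when either GFP-positive array or GFP-negative replicate 1 was left out, and that of higher genes was 1 without any single array.

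Prostaglandin genes gave 1 higher and 3 lower of 9 tested (11.1% and 33.3%, against 20.3% and 22.4% of all tested genes). PTGDS, which makes prostaglandin D, was at least 5.35-fold lower, with 168 and 194 against 570 and 501. PTGES, which makes prostaglandin E, was at least 7.3-fold higher, and PTGER4, a receptor for prostaglandin E, had a log2 difference of -2.47 ± 0.22. PTGR1, which inactivates prostaglandins and leukotrienes, had -0.68 with an adjusted p of 0.0226. That p was 0.167, 0.0578, 0.0609 and 0.0632 with each array left out in turn (limma). The count of higher genes was 2 with the replicate pairing as a block and without GFP-positive replicate 1 or 2, and that of lower genes was 5 without GFP-negative replicate 2. Among receptors for the steroids and prostaglandins that AKR1C enzymes convert, 3 were tested and 1 passed. PPARG, the adipogenic nuclear receptor, was at least 23.4-fold higher on probe ILMN_1800225, and ESR2 and NR3C2 had -0.37 and 0.22. The other PPARG probes were not detected on any array and were not tested, with signals from 99.4 to 178. ESR1, PGR, NR3C1 and the prostaglandin F receptor PTGFR were detected on both arrays of neither group.

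Carbonyl reductases of other protein families had 4 higher and 5 lower of 23 tested (17.4% and 21.7%). These shares are near the 20.3% and 22.4% of all tested genes. CBR1, which shares quinone and prostaglandin substrates with AKR1C enzymes, gave 171 and 149 in the GFP-positive samples against 745 and 729 in the GFP-negative samples. The GFP-positive signal was at least 8.11-fold lower (adjusted p = 1.07e-05, limma). Its paralogue CBR3 was at least 1.72-fold higher (adjusted p = 0.00118). DHRS3, a retinal reductase, was at least 18.4-fold higher, and CBR4 had a log2 difference of -1.26 ± 0.22. DHRS13 had -1.48 ± 0.31, with an adjusted p of 0.00758 that rose to 0.0634 without GFP-negative replicate 1 (limma).

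Of 9 tested genes of the polyol, fructose and methylglyoxal routes, 3 were higher (33.3%) and 1 lower (11.1%). Over all tested genes these shares were 20.3% and 22.4%. GLO1, which detoxifies methylglyoxal, and the inositol enzymes IMPA1 and ISYNA1 had log2 differences of 1.16 ± 0.17, 1.60 ± 0.22 and 1.36 ± 0.22. SLC5A3, an inositol transporter, had -1.19 (adjusted p = 0.0185, and 0.102 or 0.109 when replicate 1 of the GFP-positive or the GFP-negative group was left out, limma), and its second probe had -0.08. In the list for succinic semialdehyde, the substrate that AKR7A2 shares, 2 of 6 were higher and 2 lower (33.3% each). GAD1, which makes GABA, was at least 8.3-fold higher, while ALDH5A1, which oxidises succinic semialdehyde, and XYLB, a xylulose kinase, had -1.40 ± 0.19 and -1.31 ± 0.17. A second ALDH5A1 probe had -0.46 and did not pass. ADHFE1, which also acts on this route, was at least 1.32-fold higher with an adjusted p of 0.0354, which became 0.261 when GFP-positive replicate 2 was left out and 0.129 or 0.0811 when either GFP-negative array was (limma). Its second probe had 0.38 (adjusted p = 0.119) and did not pass. The count of higher genes was 1 in each of those fits that left out an array.

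**Figure D3:**
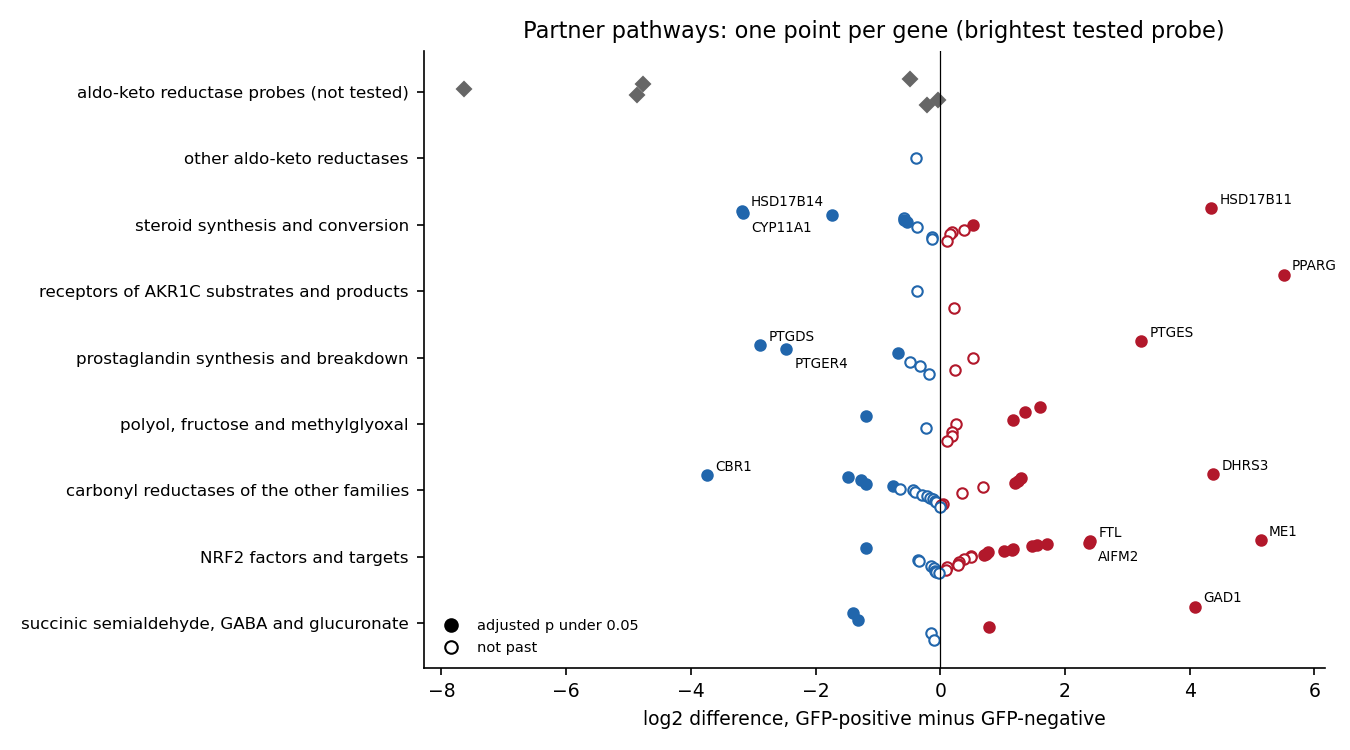
Log2 difference (horizontal axis, GFP-positive minus GFP-negative) of the tested genes of each partner list, 1 point per gene by its brightest tested probe, filled where the adjusted p is under 0.05, red above 0 and blue below. Grey diamonds in the top row are the 6 aldo-keto reductase probes, shown without a test. The 12 filled red points of the NRF2 list and the blue point of CBR1 stand beside AKR1C differences that go down to -7.63.

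The genes whose centred log2 signals lay nearest to those of AKR1C3 over the 4 arrays were SOX17 and 4 members of the GAGE family, GAGE12B, GAGE4, GAGE12F and GAGE12H. SOX17 is an endoderm transcription factor, and GAGE genes encode near-identical cancer-testis antigens whose probes can bind one another's transcripts. The root mean square distance was 0.105 (log2) for SOX17 and 0.130 to 0.176 for the others, among 14240 named tested probes. With only 4 arrays, such a likeness rests mainly on the size of the group difference.

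Of the fibroblast markers, the 3 tested were lower in GFP-positive cells, where 22.4% of all tested genes were. None of the 3 was detected on both GFP-positive arrays, so they entered the test only through the GFP-negative group. With detection required on all 4 arrays, the count of lower markers was 0. The mean log2 signal of 6 such markers was 6.71 and 6.91 on the GFP-negative and 5.95 and 5.67 on the GFP-positive arrays. COL3A1 had a log2 difference of -2.92, COL1A2 was at least 3.95-fold lower, and COL1A1 had -1.04 with an adjusted p of 0.0309 (limma). COL3A1 and COL1A1 were not detected on GFP-positive replicate 2. The p for COL1A1 became 0.176 when GFP-positive replicate 2 was left out and 0.167 when GFP-negative replicate 1 was. These collagen genes were detected on both GFP-negative arrays, and the other markers of the list, DCN, LUM and PDGFRB, on no array. Of 5 endothelial markers, 4 were detected on no array, and of 5 leukocyte markers PTPRC, CD3E and LYZ were detected on none, while CD68 and CD14, known from macrophages, were detected on all 4 arrays. The brightest CD68 probe (ILMN_2359907) gave 569 and 597 in the GFP-positive samples against 826 and 722, and the detected CD14 probe 242 and 273 against 321 and 254. Neither passed the test, but a second CD68 probe (ILMN_1714861) had a log2 difference of 2.32 ± 0.22 and passed (adjusted p = 0.000167, limma). The part of other cells in the AKR1C signals was not tested.

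**Figure D4:**
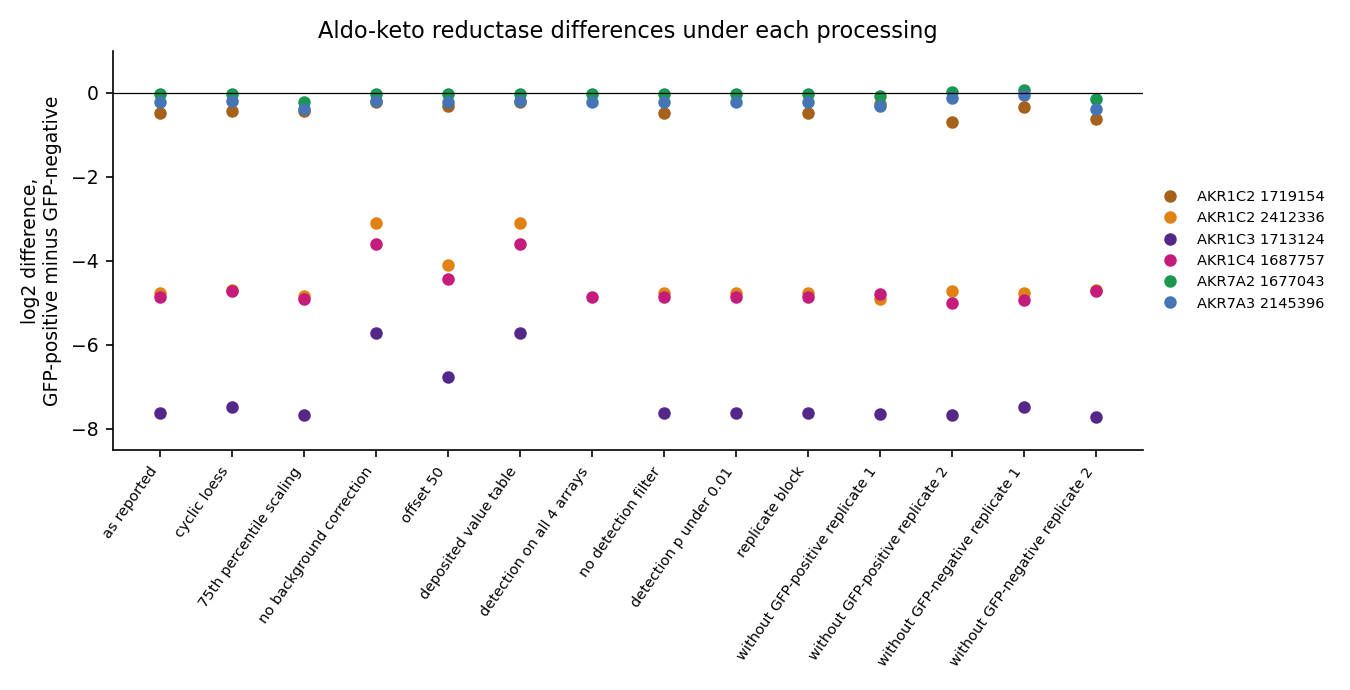
Log2 difference (vertical axis, GFP-positive minus GFP-negative) of the 6 tested aldo-keto reductase probes under each processing (horizontal axis), 1 colour per probe. The 3 low probes keep their direction wherever they were tested, and AKR1C3 moves from -7.63 to -5.71 without background correction.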

How the data were processed

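Biotin-labelled cRNA from total RNA went onto Illumina bead arrays, per the labels' protocols. The deposited table of intensity holds linear bead signals of each probe, not normalized per the file headers. The submitters' processing notes name GenomeStudio 2009.2. The same deposited table gives a detection p-value per probe and array. A second deposited table holds log2 values that equalled the quantile-normalized log2 signals of the same arrays, with a median of 7.53 on each.

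Signals were processed with limma 3.58.1 in R 4.3.3: normexp background from the detection p-values, offset 16, quantile normalization, log2. The test took the probes that both arrays of 1 group or more detected at 0.05 (lmFit, eBayes; 2 residual and 5.31 prior degrees of freedom), with Benjamini-Hochberg over 18098 probes. A permutation of 2 against 2 arrays cannot give a 2-sided p below 0.333, and the limma p-values rest on a spread between samples that may be technical. Where neither array of a group detected a probe, the text gives a bound, "at least N-fold", against the lowest detected log2 signal of each array or its own value if higher.

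Symbols came from the platform annotation (30111 probes with 1 symbol, 8 with several, 17202 unnamed), of which 30072 were matched to the GRCh38.p14 gene table. A list gene stands by its brightest tested probe. Promoters came from RefSeq (GRCh38.p14) and were aligned with Biopython 1.88. All 9 members were looked up, and promoter windows were matched for 8.

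The members and lists were chosen with earlier results of these data known. Named were every member probe, up to 5 called genes per list with the largest difference (or up to 2 as values where none passed), and the 5 genes nearest to AKR1C3; genes named outside this rule were chosen after their values were seen. The series text describes pairs isolated on different days, and the replicate number was read as the day, although batches were combined for the arrays in a way that the text does not spell out. If each array holds RNA of both days, the block has no such meaning. Deviations of same-numbered arrays correlated at 0.219. The fit has no block, and the block is an alternative, beside normalization, background, detection filters and leaving out each array. List genes without a named probe are not analysed here.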

Additional observations from a re-analysis of the deposited data

How the results depend on the processing

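The number of arrays and, for dim probes, the signal over background limit these values. The 3 low AKR1C probes kept their direction in every alternative that tested them: the log2 difference ranged from -7.72 to -5.71 for AKR1C3, from -4.99 to -3.59 for AKR1C4 ILMN_1687757 and from -4.90 to -3.11 for AKR1C2 ILMN_2412336, smallest in size without background correction and in the deposited table, which gave the same values. With detection required on all 4 arrays, 1 such AKR1C probe was left, because that filter drops probes at background in a group; 2155 probes were called higher and 15 genes of the partner lists. Leaving out each array gave 4598 to 7110 called probes in place of 7322, 2292 to 3788 of them lower in place of 3928, with the lowest values without GFP-positive replicate 2. With the replicate pairing as a block 8471 probes were called, with 29 list genes higher and 19 lower in place of 25 and 17. The block also called 2 AKR1C neighbours lower in place of 0. Among the 43 partner genes and neighbours named by rule and the line and fibroblast markers, it changed only the call of SPDEF. For this line marker (-0.49) the adjusted p went from 0.0515 to 0.043 (limma). Of 43 named partner genes and neighbours, 9 lost their call in at least 1 of 13 alternatives, AKR1D1 gained it without background correction, and none reversed; for calls lost with a filter, a scaling or an offset the cause was not tested. The same alternatives were run on the line and fibroblast markers after seeing the data: XBP1, not called (0.13), turned to -0.037 with 75th percentile scaling and ranged from -0.24 to 0.50 with single arrays left out, below 0 when GFP-positive replicate 2 (-0.24) or GFP-negative replicate 1 (-0.10) was. EPCAM also lost its call with that scaling and without a detection filter (adjusted p = 0.113 and 0.0915, limma), as COL1A1 did without the filter (0.126).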
